A study of Caenorhabditis elegans with 36 samples.

Results

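The genes described here are 10 Skp1-related genes of Caenorhabditis elegans, skr-3, skr-4, skr-5, skr-7, skr-8, skr-9, skr-10, skr-12, skr-13 and skr-14, taken by name from a table of 20167 genes. That table holds 10 other skr genes. All 10 members had a value in every library and all 10 passed the filter on low values for both chromatin marks.

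Skp1 is the adaptor of the SCF ubiquitin ligases. It binds the cullin CUL-1 on one side and an F-box protein on the other, and the F-box protein picks the substrate that is marked for degradation. Mammals rely on a single Skp1, whereas nematodes carry a large family of skr genes beside an unusually large set of F-box genes. In C. elegans skr-1 and its close copy skr-2 supply the function that every cell needs. SKR-3, SKR-4 and SKR-5 are known to work with another cullin, CUL-6, in the response to intracellular pathogens and in survival of heat. SKR-7, SKR-8 and SKR-10 bind CUL-1 in yeast assays, and RNAi of skr-7 to skr-10 slows growth and disturbs larval body shape.

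Chromatin immunoprecipitation followed by sequencing was done on whole young adults of N2, the wild type (WT), and of hrde-1(tm1200). The latter is a strain lacking the nuclear Argonaute protein through which small RNAs silence genes in the germline. A single lineage of each genotype was followed, so the generations stand in for replicates and p-values measure the spread between generations. Worms were sampled before the shift at generation 3 of 15 °C culture (15C-G3), under heat at generations 2 (23C-G2), 4 (23C-G4) and 6 (23C-G6), then once back at 15 °C in generations 1 (p15C-G1) and 2 (p15C-G2), all from biological repeat 2. Worms were collected 114 to 120 h after release of the larvae at 15 °C and 50 to 55 h after it at 23 °C, so heat and the stage reached cannot be told apart. Each of the 12 cultures gave 1 library for elongating RNA polymerase II (Pol II, phosphorylated at serine 2 of its tail), 1 for histone H3 trimethylated at lysine 9 (H3K9me3, a mark of silenced chromatin) and 1 for input DNA, 36 libraries in all. Values are reads per kb of gene and per megaread of the library (RPKM).

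The libraries for Pol II held an estimated 3.07 to 5.66 megareads (M), those for H3K9me3 2.07 to 7.97 M and those for input 0.221 to 1.31 M. Pol II at the hrde-1 gene itself was lower in the mutant at 6 of 6 generations (mutant 94.2 ± 19.4 RPKM, WT 140 ± 28.2, SD, n = 6 per genotype), and the input was lower there at 6 of 6 generations too. The lists of marker genes show that the cultures were not alike in content. The summed Pol II of 30 major sperm protein (msp) genes ran from 76.2 to 232 RPKM over the 12 libraries, and that of 5 intestinal genes from 298 to 782 RPKM. In bulk chromatin fewer cells of a type and less Pol II per cell cannot be told apart.

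The members are small genes on 2 chromosomes. On chromosome IV (WS190 coordinates throughout), skr-13, skr-9, skr-8 and skr-12 lie side by side in 5892 bp (IV:17161983-17167874), with gaps of 919, 980 and 1404 bp, and skr-10 lies apart at IV:15946748-15947399. On chromosome V, skr-14 (V:4420983-4422063, minus strand) and skr-7 (V:4422392-4423068, plus strand) point away from each other with 328 bp between them. The heat and pathogen genes skr-3 (V:16121797-16122621), skr-4 (V:19919612-19920418) and skr-5 (V:17347890-17348677) are single genes on V, and skr-5 overlaps its neighbour lsy-27 by 43 bp. The gene bodies measure 608 to 1081 bp. Per the steps of the RPKM values, 999 bp are added to each gene, which is 48% to 62.2% of the counted length. Where the added bases lie is not shown by the values. If they were split evenly, skr-7 and skr-14 would share part of their windows, as would skr-9 with skr-8 and with skr-13, so these neighbours are not independent of each other. Genes outside the members would share windows too. These are lsy-27 and fbxa-189 (212 bp away) for skr-5, nhr-111 (406 bp) for skr-3, Y47D7A.2 (250 bp) for skr-14 and Y47D7A.9 (536 bp) for skr-7.

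The estimated reads also show which members appear to share reads with other places, as if reads that match several places had been divided in counting. Sequences were not compared, and the shared reads may lie in the gene or in the added bases. For skr-5 and skr-14 the reads were whole numbers in 24 of 24 chromatin libraries (within 0.05 reads). For skr-3 and for skr-4 they were whole in 9 libraries and midway between whole numbers in 15, and these were the same libraries for both genes in 36 of 36 libraries including input. No other gene of 20166 compared matched the skr-3 pattern in more than 29. The summed reads of skr-3 and skr-4 were whole in 36 of 36 libraries, as if each shared read had been divided between that pair alone. The summed reads of skr-7, skr-8, skr-9 and skr-10 were likewise whole in 36 of 36 libraries. Of 247 combinations of members with divided reads, these and their union were the only ones to reach 36, and the next reached 26. For skr-12 and skr-13 reads came in finer fractions in 14 of 24 libraries each, and no combination of members closed them. Values of single genes within skr-3 and skr-4, and within skr-7 to skr-10, are therefore uncertain to the extent that reads are shared.

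**Figure D1:**
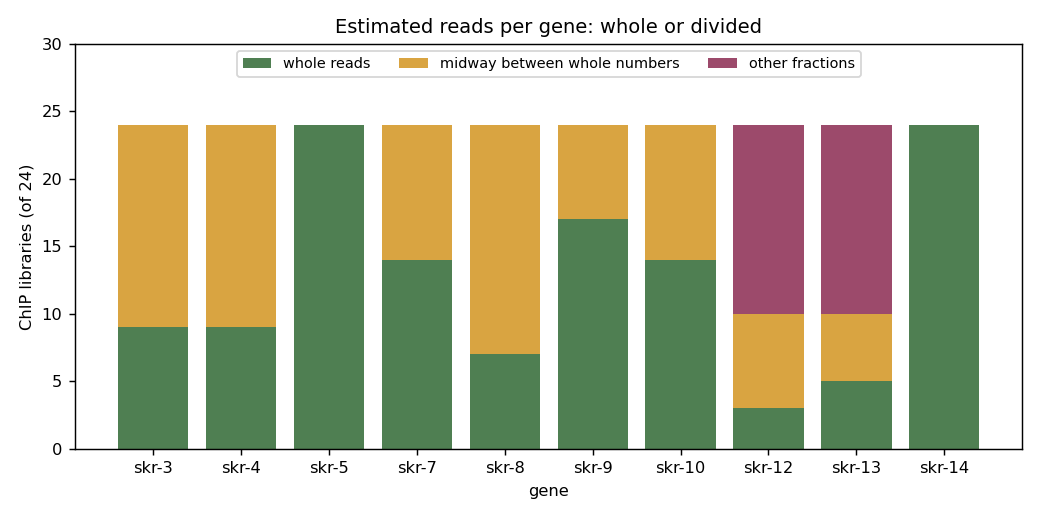
Number of chromatin libraries (of 24; y axis) in which the estimated reads of each gene (x axis) were whole, lay midway between whole numbers, or came in other fractions. All 24 are whole for skr-5 and skr-14, and 14 of 24 are other fractions for skr-12 and for skr-13.

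Pol II was of middling height at these genes. Over the 12 libraries the highest mean was that of skr-7 (10.3 ± 4.45 RPKM, SD, n = 12 here and for the other means of this paragraph) and the lowest that of skr-12 (3.44 ± 1.80). Between them came skr-5 (6.99 ± 1.71), skr-14 (6.96 ± 2.65), skr-3 (6.60 ± 2.39), skr-10 (6.50 ± 2.86), skr-8 (5.71 ± 2.17), skr-4 (5.50 ± 1.51), skr-9 (5.02 ± 2.04) and skr-13 (3.80 ± 1.33), and each neighbour in this order differed from the next by less than the larger SD of the pair. The members stood between the 41.3 and 65.7 percentile of all genes, whose median was 4.76 RPKM. The general Skp1 genes had more, with 29.9 ± 5.21 RPKM at skr-1 and 18.3 ± 4.79 at skr-2, and so did cul-1, the scaffold of the SCF complex (19.8 ± 2.44). The stress cullin cul-6 had 3.17 ± 0.796 RPKM, below skr-3, skr-4 and skr-5. In 83 of 120 pairs of a member and a culture the Pol II value was at or below the input value of the same culture, which rested on 1 to 30 reads per member, so input serves as a coarse background only. Over the means of the 12 libraries, log2 of Pol II over input (1 added to each) ran from -0.96 at skr-13 to 0.05 at skr-5. These are the 43.8 and 64.3 percentile of all genes, and every member but skr-5 was below 0, so Pol II here lay near the input level.

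Across the heat generations Pol II was higher at generations 4 and 6 than at generation 2 at most of the members, in WT and in hrde-1 alike. This order of generations was seen in the values and not planned, so it is given without a test. At skr-7 Pol II measured 4.33 RPKM at WT 23C-G2, then 12.9 at 23C-G4 and 13.7 at 23C-G6. In hrde-1 it went from 7.76 to 18.0 and 17.4 RPKM. All 4 later libraries were above both of 23C-G2, and their mean was 3.08-fold the early value in WT and 2.28-fold in hrde-1. At skr-10, a relative of skr-7, WT measured 3.25, 6.88 and 10.1 RPKM over the same generations. Its hrde-1 values were 3.60, 11.4 and 9.17 RPKM. The generation 4 value was the higher of the later pair in hrde-1 and the lower in WT, so no steady climb is shown.

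At skr-8 the WT values were 2.99, 7.26 and 7.27 RPKM and the hrde-1 values 3.24, 8.64 and 8.24. At its neighbour skr-9 they were 2.68, 6.50 and 5.87 RPKM in WT and 3.13, 9.69 and 5.64 in hrde-1. The summed reads of skr-7 to skr-10, which do not depend on how shared reads were divided, had the same order. Per megaread of the library, the sum was 22.0, 55.8 and 61.4 reads in WT and 29.5, 79.4 and 67.3 in hrde-1, from 82 to 436 reads each. Apart from skr-3 and skr-4, the genes outside that set had the same order. For skr-14, whose reads were never divided, WT measured 3.36, 7.79 and 8.31 RPKM and hrde-1 6.04, 12.3 and 10.2. For skr-12 the values were 1.78, 3.40 and 5.50 in WT and 2.08, 7.51 and 5.03 in hrde-1. On the log2(RPKM + 1) scale the smallest differences among these 8 were those of skr-13 (1.75, 4.11 and 3.61 RPKM in WT, 3.45, 6.80 and 4.66 in hrde-1) and skr-5 (5.86, 7.98 and 10.3 in WT, 5.43, 9.17 and 7.60 in hrde-1).

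The pair with shared reads, skr-3 and skr-4, did not follow this order. At skr-3 Pol II was 5.74, 3.78 and 8.16 RPKM in WT and 4.77, 5.94 and 8.61 in hrde-1 over the same generations. At skr-4 it was 7.14, 3.01 and 7.36 RPKM in WT and 6.77, 4.99 and 7.44 in hrde-1. Their summed reads per megaread were 23.4, 12.3 and 28.2 in WT and 20.9, 19.8 and 29.1 in hrde-1. In WT the sum was lowest at 23C-G4, where that of skr-7 to skr-10 was well above its 23C-G2 level.

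Counted by this order, 8 of 10 members had all 4 libraries of 23C-G4 and 23C-G6 above both libraries of 23C-G2, as had 23.7% of all genes, and 0 members had the reverse order, as had 15.4% of all genes. The 8 are not 8 separate cases, because of shared reads and neighbouring windows. On the log2(RPKM + 1) scale the mean of the later generations exceeded generation 2 by a median of 0.95 over the members in WT and 0.91 in hrde-1, beside 0.06 and 0.10 over all genes. In WT skr-7 stood at the 99.6 percentile of all genes by this difference and skr-4 at the 9.44 percentile. The order depended on the unsubtracted values: with the input of the same culture subtracted it held for 0 members and 4.79% of all genes.

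**Figure D2:**
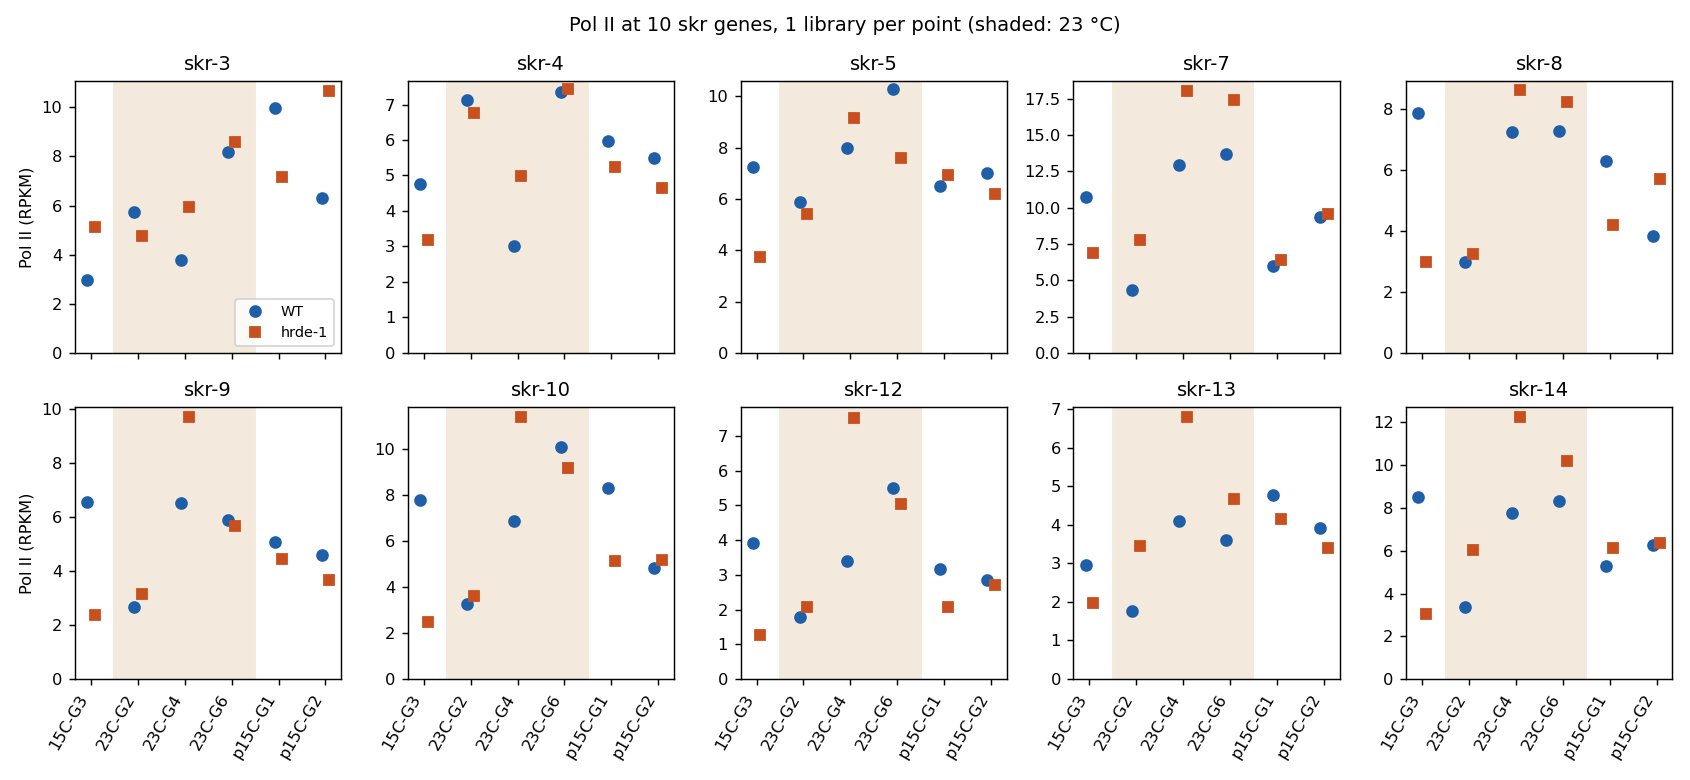
Pol II (RPKM, y axis from 0 in each panel) at the 10 members in each library (x axis: generation, 23 °C shaded; circles WT, squares hrde-1). Except at skr-3 and skr-4, the points of 23C-G2 lie below those of 23C-G4 and 23C-G6, for example 4.33 against 12.9 and 13.7 RPKM for skr-7 in WT.

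**Figure D3:**
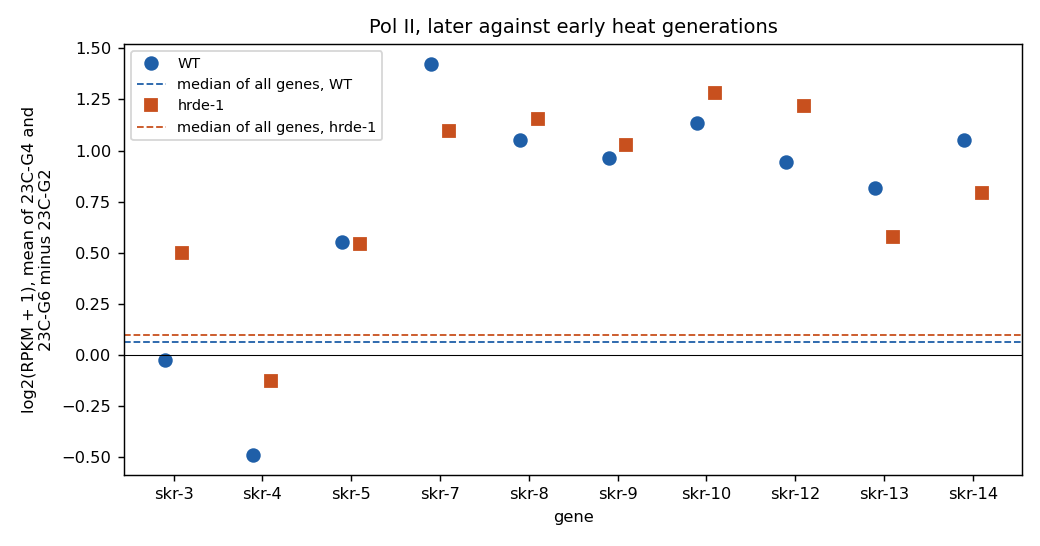
Difference in Pol II between the later generations (mean of 23C-G4 and 23C-G6) and 23C-G2 on the log2(RPKM + 1) scale (y axis) for each member (x axis) in WT (circles) and hrde-1 (squares), with the median of all genes as dashed lines. The members run from -0.49 at skr-4 in WT to 1.43 at skr-7 in WT, beside medians of 0.06 and 0.10.

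Other families of ubiquitin ligase genes were read by the same order, as were the marker lists. It held for 7 of 10 other skr genes, among them skr-1, skr-2, skr-15 and skr-21. It held for 86 of 111 fbxb genes (77.5%) and 35 of 54 fbxc genes (64.8%), which code for F-box proteins, but for 43 of 197 fbxa genes (21.8%), the other large F-box family. Of 9 core and regulatory SCF genes it held for 4, cul-1, rbx-1 and rbx-2 (the RING subunits) and ned-8 (the modifier of cullins), and of 4 other cullins for 0. Of 8 individually studied F-box genes it held for 0, and the reverse order held for 3. Of 35 pals genes, which belong to the pathogen response with skr-3 to skr-5, it held for 10.

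The marker lists also shifted between the heat generations, but not all in the direction of the members. The order held for 18 of 38 early zygotic embryo markers, and the reverse order held for 27 of 30 msp genes and 3 of 5 intestinal markers. The order of the members also held for 3 of 4 neuron markers, 3 of 8 germline markers, 1 of 3 body muscle markers and 1 of 8 hsp-16 heat shock genes. The summed msp level was 232 RPKM at 23C-G2 in WT against 105 and 78.6 later, and 208 against 103 and 112 in hrde-1. The summed level of the embryo markers (end-1, end-3, med-1, med-2 and the sdz genes) was 134 RPKM at 23C-G2 against 194 and 185 in hrde-1, and in WT it was also lower at 23C-G2 than at the later generations, which had 164 and 162 RPKM. The summed level of 8 germline markers was 335 against 513 and 409 RPKM in WT, and 338 against 388 and 354 in hrde-1. The part of these shifts in the values of the skr genes was not tested.

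The 15 °C libraries set the genotypes apart. At 15C-G3 Pol II at skr-14 was 8.53 RPKM in WT and 3.05 in hrde-1. At skr-10 it was 7.78 RPKM in WT and 2.47 in hrde-1, and at skr-8 7.87 and 3.00. Of the 10 members 9 were lower in hrde-1 at this generation, by ratios from 0.318 (skr-10) to 0.668 (skr-4), as were 45.7% of all genes, and only skr-3 was higher (5.14 against 2.97 RPKM). Each genotype has 1 library at 15C-G3, so the difference at that generation has no replicate check. The same 2 libraries differed in the marker lists, with a summed msp level of 76.2 RPKM in WT and 156 in hrde-1 and a summed embryo marker level of 150 and 121 RPKM. What part this had in the skr values was not tested.

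Against that baseline, Pol II at the members was higher at 23 °C in hrde-1, by differences that did not pass the test, and showed no common direction in WT. In hrde-1 the 3 libraries at 23 °C were all above the 15C-G3 library at 9 of 10 members, as at 35.2% of all genes. All 10 log2 differences between 23C and 15C in hrde-1 were positive, with a median of 0.93 beside 0.07 over all genes, and 6 had an unadjusted limma p under 0.05, beside 7.02% of all genes. The largest was at skr-14, which averaged 9.50 ± 3.17 RPKM (SD, n = 3) at 23 °C against 3.05 at 15C-G3 (log2 difference 1.32, SE 0.40, limma adjusted p = 0.41). In the fit over all genes 0 members were called, where a call needs a limma adjusted p of at most 0.1 and a 2-fold change, and 0.229% of all genes were called. In WT, 4 of 10 differences were positive, the median was -0.19, 0 members were called and 0 had an unadjusted p under 0.05, and 0.0149% of all genes were called. The smallest p in WT was that of skr-3, at 2.97 RPKM before and 5.89 ± 2.20 (SD, n = 3) during heat (log2 difference 0.74, SE 0.38, limma adjusted p = 0.65).

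The count in hrde-1 depended on 23C-G2. With both 23C-G2 libraries left out, a choice made after the values were seen, 7 members were called higher at 23 °C than at 15 °C in hrde-1 (skr-7, skr-8, skr-9, skr-10, skr-12, skr-13 and skr-14, log2 differences from 1.16 to 1.69), and 738 of 20116 genes were called. With the hrde-1 23C-G2 library alone left out skr-10, skr-12 and skr-14 were called, and with the WT one alone skr-14. The shares of all genes called with a single library left out are not given here.

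**Figure D4:**
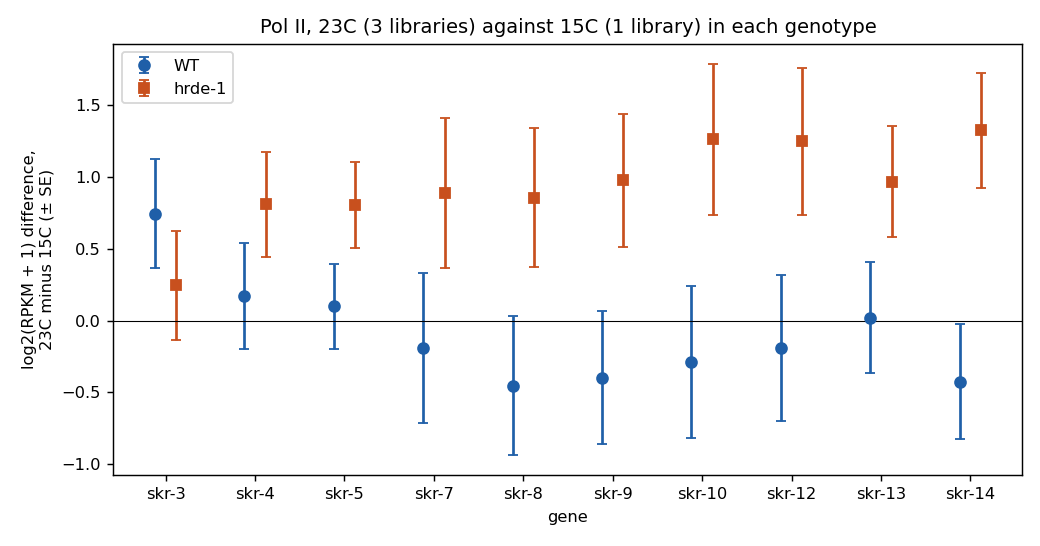
Difference in Pol II between the 3 libraries at 23 °C and the 1 library at 15C-G3 on the log2(RPKM + 1) scale (y axis; bars are SE from limma) for each member (x axis) in WT (circles) and hrde-1 (squares). The values of hrde-1 lie above those of WT except at skr-3, with 1.32 against -0.43 at skr-14.

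Whether the change with heat differed between the genotypes was tested directly. The difference of differences was positive at 9 of 10 members, with a median of 1.19 on the log2 scale beside -0.02 over all genes. Without pairing 0 members were called, 1 had an unadjusted p under 0.05 and 0.00497% of all genes were called, and the smallest p was that of skr-14 (1.75, SE 0.57, limma adjusted p = 1.00). In Pol II the generations of WT and hrde-1 deviated together, so the fit with the generation as a block is given beside it. In the paired fit 4 members were called, all with the higher value in hrde-1, and 1.43% of all genes were called. They were skr-14 (1.75, SE 0.25, adjusted p = 0.0078), skr-7 (1.08, SE 0.22, 0.044), skr-9 (1.37, SE 0.29, 0.051) and skr-10 (1.55, SE 0.34, 0.059), all from limma. The 4 stand on the 1 library of each genotype at 15C-G3 described above, skr-7, skr-9 and skr-10 share reads and skr-14 adjoins skr-7. With both 23C-G2 libraries left out as well, skr-9, skr-10 and skr-14 were called and skr-7 was not. With the input subtracted the difference turned to -0.71 at skr-7 and -0.92 at skr-9.

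At the same generations in heat no member was called between the genotypes. At 23 °C Pol II was higher in hrde-1 by a median of 0.21 on the log2 scale over the members (9 of 10 positive), beside 0.03 over all genes, and 0 members were called or had an unadjusted p under 0.05, while 0.85% of all genes were called. The smallest p was that of skr-13 (log2 difference 0.53, SE 0.27, limma adjusted p = 1.00), at 1.75, 4.11 and 3.61 RPKM in WT and 3.45, 6.80 and 4.66 in hrde-1, higher in the mutant at 3 of 3 generations. In the paired fit 0 members were called and 0.895% of all genes were, but 3 had an unadjusted p under 0.05, beside 13.7% of all genes. They were skr-7 (0.50, SE 0.11, limma adjusted p = 0.033), skr-14 (0.52, SE 0.13, adjusted p = 0.055) and skr-13 (0.53, SE 0.15, adjusted p = 0.097), which passed the adjusted p and missed the 2-fold change. After the return to 15 °C the median was -0.10 beside 0.12 over all genes, 0 members were called or had an unadjusted p under 0.05, and 0.949% of all genes were called. The paired fit there also called 0 members, with 0 at an unadjusted p under 0.05 and 1.45% of all genes called. There skr-10 had the smallest p, with 8.30 (p15C-G1) and 4.82 RPKM (p15C-G2) in WT and 5.13 and 5.16 in hrde-1 (log2 difference -0.26, SE 0.46, limma adjusted p = 0.86). Both hrde-1 values lie between those of WT, and without the WT p15C-G1 library the difference is 0.08.

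In hrde-1 the mean Pol II level after heat lay between those before and during it at 9 of 10 members, and in WT at 1, skr-4. The level before heat is 1 library per genotype, and that of hrde-1 was below that of WT at 9 of 10 members. The share of all genes with this order was not counted, so the counts are not read as a difference between the genotypes. In hrde-1 skr-7 measured 14.4 ± 5.75 RPKM at 23 °C (SD, n = 3) and 6.42 and 9.53 after it, values that overlap the 7.76 of 23C-G2. This was the smallest p among members in that comparison (log2 difference of 23C over p15C 0.72, SE 0.41, limma adjusted p = 0.62). In hrde-1 0 members were called and 0 had an unadjusted p under 0.05 between 23C and p15C, and 0.0249% of all genes were called. Without both 23C-G2 libraries, a choice made after the values were seen, skr-7 and skr-12 were called, each higher at 23 °C (log2 differences 1.08 and 1.09). The share of all genes called in that fit is not given here, so these calls have no background beside them. In WT the same comparison also called 0 members, with 0 at an unadjusted p under 0.05 and 0.368% of all genes called, and skr-3 had the smallest p (-0.43, SE 0.30, limma adjusted p = 1.00).

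Between p15C and 15C, skr-3 had the smallest p in WT. It measured 2.97 RPKM at 15C-G3 and 9.99 (p15C-G1) and 6.30 (p15C-G2) after heat (log2 difference 1.17, SE 0.40, limma adjusted p = 0.41). It was called when only the 15C and p15C libraries were fitted, a fit that estimates the spread from fewer libraries. The share of all genes called in that fit is not given here, so this call has no background beside it. Over all libraries 0 members were called, 1 had an unadjusted p under 0.05, and 0.0994% of all genes were called. In hrde-1 all 10 differences were positive with a median of 0.62 beside 0.22 over all genes, 0 members were called, 1 had an unadjusted p under 0.05, and 0.0149% of all genes were called. That 1 was skr-5, a partner of CUL-6, at 3.72 RPKM before heat and 6.93 and 6.20 after it (log2 difference 0.68, SE 0.31, limma adjusted p = 0.52).

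Likeness over the 12 Pol II libraries was read for the 8 members with the order of heat generations above, and for skr-3 and skr-4. This split came from values of the same libraries, so the r values are not separate support for it. Pearson's r of log2(RPKM + 1) was 0.64 to 0.95 (median 0.85) over the 28 pairs among skr-5, skr-7, skr-8, skr-9, skr-10, skr-12, skr-13 and skr-14. It was -0.09 to 0.31 over the 16 pairs of skr-3 or skr-4 with these 8, and 0.43 between skr-3 and skr-4. These values describe 12 libraries that share cultures and depth, and the 8 partly share reads. Among genes other than the members and over 5 kb away, the pattern most like skr-7 was that of inx-2 (r = 0.97), which codes for a gap junction protein. That most like skr-14 was cht-1 (0.97), named for a chitinase, and that most like skr-8 was the F-box gene fbxb-102 (0.96). For skr-5 it was zeel-1 (0.95), the antidote gene of a selfish toxin and antidote pair, and for skr-3 it was F36H9.5 (0.95). The others were C18H7.10 for skr-4 (0.89), H04D03.4 for skr-9 (0.95), C17E4.2 for skr-10 (0.96), F53A2.3 for skr-12 (0.95) and M03B6.4 for skr-13 (0.93).

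H3K9me3 set skr-4 and skr-5 apart from the rest. The mean over 12 libraries was 16.1 ± 3.59 RPKM at skr-5 and 15.3 ± 1.31 at skr-4 (SD, n = 12 for each mean here), the 93.5 and 92.5 percentile of all genes. The input-relative level placed them at the 97.0 and 92.9 percentile. Added bases make up 55.9% of the length counted at skr-5, so its values may include signal of its neighbours lsy-27 and fbxa-189. The part of these neighbours was not tested. The next members were skr-10 (9.84 ± 1.98 RPKM), skr-12 (8.78 ± 2.03), skr-7 (8.76 ± 1.56), skr-8 (8.48 ± 0.978), skr-9 (8.37 ± 0.732), skr-13 (7.81 ± 1.41) and skr-14 (7.58 ± 1.43). The lowest was skr-3 (5.91 ± 0.681), although it shares reads with skr-4. All genes had a median of 7.81 RPKM, so these 7 lay between the 46.9 and 73.8 percentile, and neighbours among them in this order differed by less than the larger SD. The general Skp1 genes skr-1 and skr-2 had 2.24 ± 0.758 and 2.97 ± 0.593 RPKM, while skr-6 had 15.2 ± 2.74.

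At skr-5 H3K9me3 was lower in hrde-1 than in WT at 6 of 6 generations. In WT it measured 22.2 RPKM before heat (15C-G3), then 15.0, 13.8 and 20.9 in heat, and 19.9 and 20.1 in the generations after it. The mutant, in the same order, gave 13.9, then 14.4, 12.3 and 11.9, then 14.9 and 14.5 RPKM. The hrde-1 value of 23C-G2 was above the WT value of 23C-G4, so the groups overlap at 23 °C. After heat the 2 values of each genotype do not overlap, and at 15C-G3 there is only 1 library of each. Such a lower value at all 6 generations was found at 1 of 10 members and at 6.83% of all genes. By limma the difference was not called at 23 °C (-0.33, SE 0.13, adjusted p = 0.26) or at p15C (-0.42, SE 0.16, adjusted p = 0.29). Of the genes that work with skr-5, fbxa-158 was also lower in hrde-1 at 6 of 6 generations (WT 16.8 ± 1.84 RPKM, mutant 13.2 ± 0.866, SD, n = 6 per genotype). For fbxa-75 this held at 5 of 6 generations and for cul-6 at 2 of 6. By limma fbxa-158 was not called (adjusted p = 0.36 at 23 °C and 0.21 at p15C). Its reads were whole in 1 of 24 chromatin libraries and those of fbxa-75 in 0 of 24, so both appear to share reads with other places. Within the family skr-6 was lower in hrde-1 at 6 of 6 generations too (WT 17.0 ± 2.21 RPKM, mutant 13.3 ± 1.89, SD, n = 6 per genotype), and was not called.

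In the tests between genotypes 0 members were called for H3K9me3 at 23 °C, where 0.848% of all genes were called, or at p15C, where 0.912% were. At each 1 member, skr-5, had an unadjusted p under 0.05. The median over the members was -0.07 at 23 °C and 0.03 at p15C, beside 0.06 and 0.09 over all genes. Among the F-box families 6 of 197 fbxa genes, 2 of 111 fbxb genes and 1 of 54 fbxc genes fell at 23 °C in hrde-1, and 8, 2 and 1 at p15C. None of the 10 other skr genes and none of the 9 SCF genes was called at either.

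**Figure D5:**
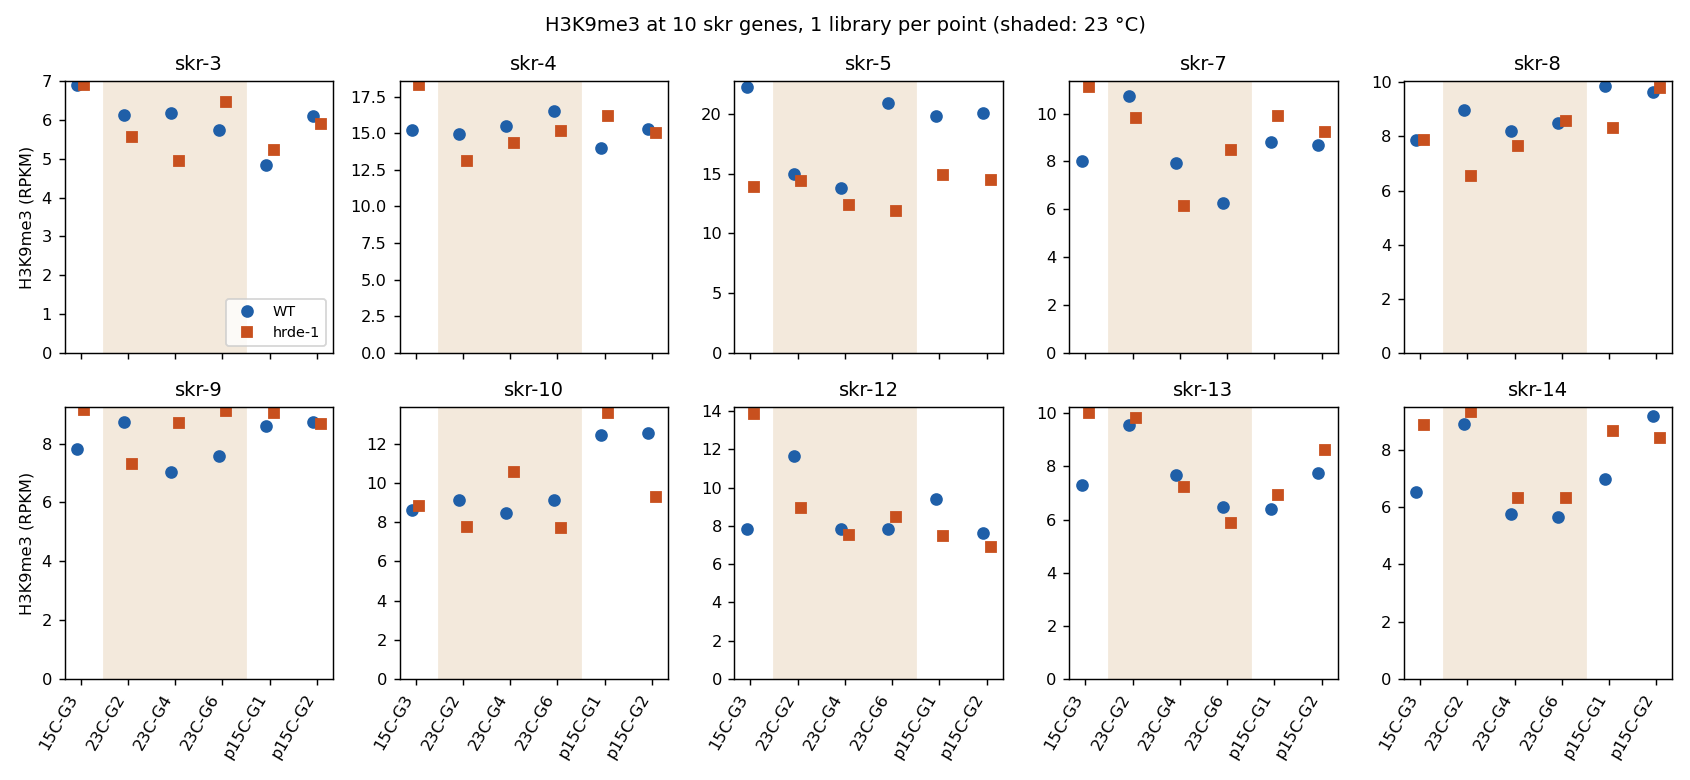
H3K9me3 (RPKM, y axis from 0 in each panel) at the 10 members in each library (x axis: generation, 23 °C shaded; circles WT, squares hrde-1). At skr-5 the hrde-1 point is below the WT point at 6 of 6 generations, from 13.9 against 22.2 RPKM at 15C-G3 to 14.5 against 20.1 at p15C-G2.

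No member was called for H3K9me3 between 23 °C and 15 °C. In WT 0 members were called between 23C and 15C, 1 had an unadjusted p under 0.05 and 0.0496% of all genes were called, and skr-5 had the smallest p (16.6 ± 3.82 RPKM, SD, n = 3, against 22.2; log2 difference -0.43, SE 0.18, limma adjusted p = 0.51). In hrde-1 all 10 differences were negative with a median of -0.26 beside -0.01 over all genes, 0 members were called, 2 had an unadjusted p under 0.05 and 0.0645% of all genes were called. The smallest p was that of skr-12, at 13.8 RPKM at 15C-G3 and 8.94, 7.54 and 8.47 RPKM in heat (-0.68, SE 0.19, limma adjusted p = 0.25). The hrde-1 library of 15C-G3 was the highest of the 12 at skr-12, whose WT value at that generation was 7.85 RPKM. The difference of differences was -0.85 at skr-12 (SE 0.27, limma adjusted p = 0.63), 0 members were called with 1 at an unadjusted p under 0.05, and 0.0% of all genes were called, with 1278 of 20167 genes at an unadjusted p under 0.05.

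In the comparisons with p15C in WT, skr-10 had the smallest p for H3K9me3. Its H3K9me3 was 8.63 RPKM at 15C-G3, 9.15, 8.49 and 9.12 in heat, and 12.4 and 12.5 after it, so the p15C pair lay above all other WT libraries. The WT input at skr-10 had the p15C pair on top too, with 3.28 RPKM at 15C-G3, 3.91, 5.27 and 3.83 in heat, and 8.65 and 6.89 after it. With the input subtracted the sign of the difference of p15C over 15C turned. The log2 difference of 23C over p15C was -0.44 (SE 0.15, limma adjusted p = 0.55) and that of p15C over 15C was 0.49 (SE 0.20, adjusted p = 0.63). In each of these WT comparisons 0 members were called, 1 had an unadjusted p under 0.05, and 0.0% of all genes were called, with 1367 and 1463 of 20167 genes at an unadjusted p under 0.05. In hrde-1 the values of skr-10 after heat were 13.6 and 9.30 RPKM, against 7.77, 10.6 and 7.69 in heat, and the groups overlapped (-0.35, SE 0.15, limma adjusted p = 1.00). Between 23C and p15C in hrde-1 0 members were called, 1 had an unadjusted p under 0.05 and 0.00992% of all genes were called. Between p15C and 15C in hrde-1 0 members were called, 1 had an unadjusted p under 0.05 and again 0.00992% of all genes were called. That 1 was skr-12 once more, at 7.48 and 6.89 RPKM after heat against 13.8 before (-0.86, SE 0.20, limma adjusted p = 0.58).

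Where Pol II was higher at the later heat generations, H3K9me3 showed no single direction. At skr-14 it went from 8.91 RPKM at 23C-G2 to 5.75 and 5.67 in WT and from 9.31 to 6.33 and 6.31 in hrde-1. At skr-7 it went from 10.8 to 7.95 and 6.25 RPKM in WT and from 9.82 to 6.12 and 8.46 in hrde-1. These head-to-head neighbours and skr-13 (9.58 to 7.69 and 6.48 RPKM in WT, 9.84 to 7.21 and 5.86 in hrde-1) were lower at the later generations in both genotypes. So was skr-12 (11.7 to 7.86 and 7.82 RPKM in WT, 8.94 to 7.54 and 8.47 in hrde-1). At skr-9 it went from 8.72 to 7.03 and 7.58 RPKM in WT but from 7.32 to 8.71 and 9.10 in hrde-1. The median log2 difference over the members was -0.16 in WT and -0.06 in hrde-1, beside -0.07 and -0.04 over all genes.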

How the data were processed

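Pol II, H3K9me3 and input chromatin of 12 cultures was sequenced by the authors (36 libraries). They aligned reads to WS190 with Bowtie (version 0.12.7 in the submitters' processing notes), and the authors deposited RPKM per gene and library, with no input subtracted. Positions are those of the deposited table, written 1-based. Isoform rows were reduced to the first (744 of 20911 dropped), leaving 20167 genes. Names were taken from a RefSeq table for 19562 genes.

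Estimated reads are RPKM times the gene length plus 999 bp times the library's depth. The added length was the one giving most whole reads: 73.4% of genes (median library, within 0.02 reads) against 3.98% without it. Depth was read from the same steps. In Pol II 1 read was worth 0.085 to 0.203 RPKM at a member, in input 0.366 to 2.82. All of this covers counting error only.

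Tests were made with limma 3.58.1 in R 4.3.3 on log2(RPKM + 1), where the added 1 understates changes at low values. Per mark, 12 libraries were fitted with 6 group means (genotype by phase), with a mean-variance trend and 6 residual degrees of freedom, over genes averaging 1 RPKM or more in the mark and in input (20116 for Pol II, 20167 for H3K9me3). Adjustment was by Benjamini-Hochberg over these genes. A call needed an adjusted p of at most 0.1 and a 2-fold change. The script was tested on simulated data. The 15C phase has 1 library per genotype, assumed to vary like the other groups.

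Deviations of WT and hrde-1 libraries of the same generation from their group means correlated at 0.35 to 0.71 at 23 °C in Pol II (3 pairs) and at 0.05 to 0.21 in H3K9me3, so generations were treated as paired for Pol II only. The block fit has 3 residual degrees of freedom.

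Alternatives were other pseudocounts, filters and scalings, no trend, only the phases compared, input subtraction, the replicate block and leaving out each library. Each comparison names its called members and the one with the smallest p. The members, lists and rules were chosen with earlier results of these data known, and the order of the heat generations and the fits without 23C-G2 were chosen after the values were seen.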

Additional observations from a re-analysis of the deposited data

Results flagged for a closer look

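By the paired test, the change in Pol II between 15 °C and 23 °C differed between hrde-1 and WT at 4 members, with differences on the log2 scale of 1.08 at skr-7, 1.37 at skr-9, 1.55 at skr-10 and 1.75 at skr-14. Each change was more positive in hrde-1, while at 15C-G3 the level of each gene was lower there. Without pairing 0 members were called (adjusted p = 1.00 at skr-14), and with the input subtracted the difference turned to -0.71 at skr-7 and -0.92 at skr-9. The 4 differences take their baseline from 1 library per genotype at 15C-G3, in which the summed msp level also differed (76.2 RPKM in WT and 156 in hrde-1), and the part of that in the differences was not tested.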

How the results depend on the processing

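Over 18 planned comparisons the main fit called 0 members. For Pol II the count of members called moved under these settings. With the input subtracted it was 1 for 23C against 15C in WT, 1 for the difference between genotypes and 1 for p15C against 15C in WT, each time skr-8. Many subtracted values are then 0, and these calls carry SEs of 0.04 to 0.05, without a share of all genes called beside them. With only the 15C and p15C libraries it was 1 (skr-3, WT), also without that share. With the replicate block, run for the 3 comparisons that involve both genotypes, it was 4 for the difference between genotypes and stayed at 0 at 23 °C and at p15C, and in H3K9me3, where generations did not pair, it left all 3 counts at 0. Without both 23C-G2 libraries it was 7 for 23C against 15C in hrde-1, 2 for 23C against p15C in hrde-1 and 3 for the difference between genotypes, with the block (288 genes called with the block alone, 210 without these libraries) or without it. Leaving out each library in turn gave 0 to 3 members for 23C against 15C in hrde-1 and 0 in the other comparisons. For H3K9me3 no setting moved the count from 0. The order of the heat generations held for 7 members with median centring or quantile normalization and for 0 with the input subtracted. Signs turned at skr-7 (-0.71) and skr-9 (-0.92) in the Pol II difference between genotypes and at skr-10 in H3K9me3 for p15C against 15C in WT (-0.17), each with the input subtracted, and at skr-10 in Pol II between genotypes at p15C, which ran from -0.60 to 0.079 when each library was left out in turn. The limits are 1 lineage per genotype, 1 library per genotype at 15C-G3, 7 to 166 Pol II reads and 1 to 30 input reads per member and library, and reads apparently divided among several places.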
